A study of Mus musculus with 4 samples.

Results

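The neutrophil granule genes described here are the 10 rows of the deposited expression table named Elane, Prtn3, Mpo, Ltf, Camp, Ngp, Lcn2, Mmp8, S100a8 and S100a9, out of 17039 genes listed. They were chosen by symbol and placed in 3 classes by the stage of maturation at which a neutrophil makes them, with 3 azurophil genes (Elane, Prtn3, Mpo), 4 specific granule genes (Ltf, Camp, Ngp, Lcn2) and 3 late genes (Mmp8, S100a8, S100a9). RNA sequencing was done on T cells that were taken from spleens of C57BL/6 mice by magnetic sorting (MACS), and the series title names them CD8+. One group had received a recombinant adeno-associated virus (AAV) coding for the cytokine interleukin-27, called AAV-IL-27, and the other a control virus, called AAV-ctrl. Both viruses were given into muscle about a month before the spleens were taken. There were 2 libraries in each group, labelled replicates 1 and 3, and the design text speaks of 4 mice. Age, sex and the antibodies of the sort are not given in the sources used here.

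A neutrophil fills its granules in a fixed order while it matures in the marrow. Azurophil granules are filled first, at the promyelocyte stage, with serine proteases and myeloperoxidase. Specific granules follow in myelocytes and metamyelocytes and hold iron-binding and antimicrobial proteins. Gelatinase granules and the cytosolic S100 proteins come last, and transcripts of the early classes are low in mature neutrophils. T cells are not known for making these proteins.

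The promoter of the gene with the highest FPKM of each class is printed here, because the 10 genes moved together and these windows let their starts be compared. FPKM is the authors' length- and depth-normalized value. Sequences are from RefSeq, build GRCm38.p6, 250 bases before the start of the gene and 50 after it, written 5′ to 3′ on the gene's strand. All 10 genes had a promoter in that table. Capitals mark matches, on either strand, to GCAAT (letters bound by C/EBP factors), GAGGAA (letters bound by PU.1) and TGTGGT (letters bound by RUNX factors).
Mpo (chr11:87793534-87793833, plus strand): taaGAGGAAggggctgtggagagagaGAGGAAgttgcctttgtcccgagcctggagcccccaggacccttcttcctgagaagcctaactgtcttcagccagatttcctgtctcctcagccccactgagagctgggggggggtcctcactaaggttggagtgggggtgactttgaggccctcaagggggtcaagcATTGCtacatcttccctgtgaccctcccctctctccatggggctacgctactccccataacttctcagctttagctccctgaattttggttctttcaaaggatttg
Ngp (chr9:110419558-110419857, plus strand): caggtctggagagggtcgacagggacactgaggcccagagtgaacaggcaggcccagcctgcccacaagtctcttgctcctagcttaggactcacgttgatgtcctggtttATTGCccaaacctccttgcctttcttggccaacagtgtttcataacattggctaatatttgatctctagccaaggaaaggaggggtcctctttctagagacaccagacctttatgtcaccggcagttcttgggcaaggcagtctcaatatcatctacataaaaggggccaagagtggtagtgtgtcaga
S100a9 (chr3:90695672-90695971, minus strand): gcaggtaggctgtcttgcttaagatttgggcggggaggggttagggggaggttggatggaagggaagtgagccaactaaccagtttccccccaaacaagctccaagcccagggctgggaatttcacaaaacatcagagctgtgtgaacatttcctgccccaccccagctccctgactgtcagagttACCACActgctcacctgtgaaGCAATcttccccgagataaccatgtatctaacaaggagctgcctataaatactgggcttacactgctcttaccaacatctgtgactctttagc
GCAAT was found in 9 of the 10 promoters, all but Prtn3, and in 26.4% of the 32851 promoters of the table. GAGGAA was found in 7 of the 10 and in 28.3% of the table, and was absent from the windows of Camp, Ngp and S100a9. TGTGGT was found in 2 of the 10, Ltf and S100a9, and in 16.8% of the table. No matches overlapped one another in the 10 promoters. A match gives only the presence of these letters.

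The libraries were of similar depth, from 15742523 to 16182453 expected counts, and 12887 genes passed the filter on low counts and were tested. T cell markers were high in every library, with 9 listed markers (4 higher, 1 lower) summing to 4758 and 4164 CPM (the count scaled by library size) in AAV-IL-27, against 4186 and 4245 in AAV-ctrl. By edgeR's quasi-likelihood test, 39% of the 12887 tested genes changed, of which 2745 were higher (21.3% of all tested) and 2278 lower (17.7%) in AAV-IL-27. The split depended on the scaling between libraries, with 2362 higher and 2979 lower by upper-quartile factors, 2363 and 2975 by library size alone, and 1367 and 3174 when scaled to the T cell list. Under that last scaling the median gene stood at -0.17 on the log2 scale, against -0.0053 with TMM factors. It lowered the 10 granule genes by a like amount, and their lowest log2 fold change was then 3.73.

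All 3 classes were far higher in the sorted cells of AAV-IL-27 mice than in those of AAV-ctrl mice. Together the 10 genes took 826 and 1342 CPM in AAV-IL-27 replicates 1 and 3, against 22.1 and 13.6 in AAV-ctrl replicates 1 and 3. Each of the 10 was higher in both AAV-IL-27 libraries than in both AAV-ctrl libraries, where 35.7% of all tested genes had that pattern. All 10 passed the test as higher, against 39% of tested genes called in either direction and 21.3% called higher, and each rose by more than 8-fold. Of the tested genes, 0.636% both passed the test and were at least 8-fold higher. In these bulk samples, more cells of a type and more RNA per cell cannot be told apart. The 10 genes passed the filter, but 5 of them (Elane, Prtn3, Mpo, Camp and Mmp8) did so only through their AAV-IL-27 libraries and therefore had to differ. The other 5 (Ltf, Ngp, Lcn2, S100a8 and S100a9) would have passed in AAV-ctrl alone.

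**Figure D1:**
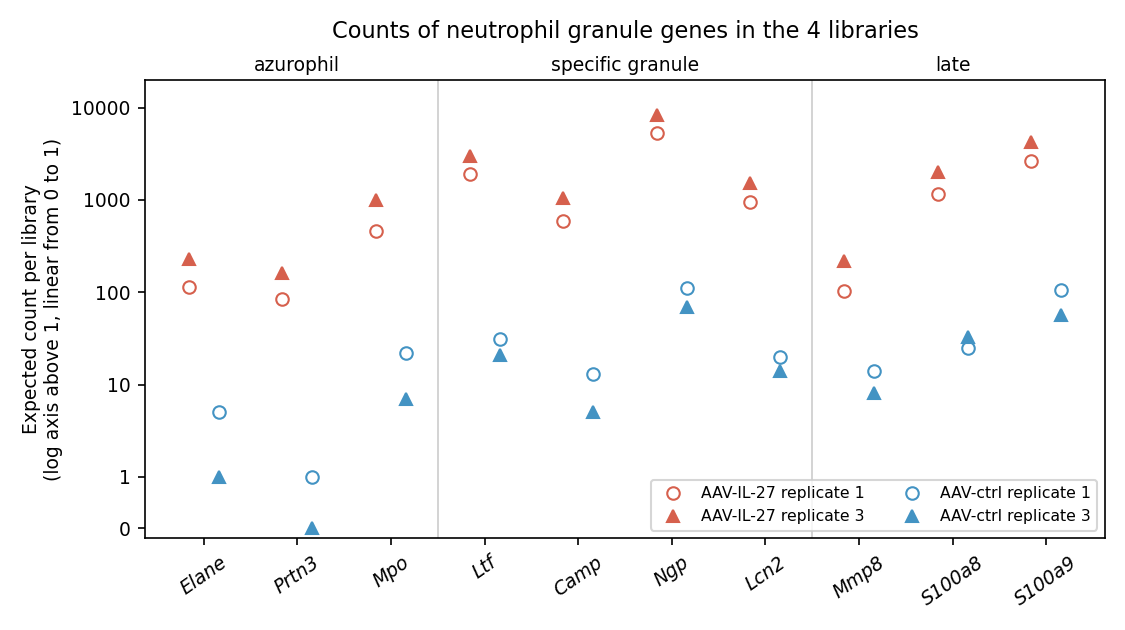
Expected count of each of the 10 granule genes (vertical axis, logarithmic above 1 and linear from 0 to 1) in each library, with AAV-IL-27 in red left of AAV-ctrl in blue, open circles for replicate 1 and triangles for replicate 3. Every red point lies above both blue points of its gene, from Prtn3 with 84 and 160 counts against 1 and 0, to Ngp with 5278 and 8340 against 112 and 69.

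The azurophil genes were the least abundant class. Elane, which encodes neutrophil elastase (NCBI Gene 50701, chromosome 10, 79886312 to 79888216), had 114 and 227 counts in AAV-IL-27, against 5 and 1 in AAV-ctrl. Prtn3, which encodes proteinase 3, a related serine protease (NCBI Gene 19152, chromosome 10, 79879667 to 79883174), had 84 and 160 counts in AAV-IL-27, against 1 and 0 in AAV-ctrl. Mpo, which encodes myeloperoxidase, the enzyme that makes hypochlorous acid (NCBI Gene 17523, chromosome 11, 87793784 to 87804412), had 463 and 987 counts in AAV-IL-27, against 22 and 7 in AAV-ctrl. None of the 3 had overlapping groups, and each was near the limit of detection in at least 1 AAV-ctrl library.

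By edgeR, Elane rose by 5.79 ± 0.65 on the log2 scale (SE, adjusted p = 0.00145) and Mpo by 5.65 ± 0.93 (adjusted p = 0.0434). Prtn3 rose as well (adjusted p = 0.00021). Its fitted value of 7.62 depends on the prior count, because AAV-ctrl held 1 count in all. The ratio of its summed counts was 238, with a 95% counting interval from 42.4 to 9453. Mpo was the least secure call of the 10. It did not pass without a filter on low counts (adjusted p = 0.0709), nor with libraries scaled by T cell genes (adjusted p = 0.0892).

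On the length-normalized scale the 3 azurophil genes reached, in AAV-IL-27, 11.7 ± 5.47 FPKM for Elane, 7.94 ± 3.47 FPKM for Prtn3 and 17.6 ± 8.93 FPKM for Mpo (SD, n = 2 each). The gaps between these levels are within the spread over the 2 libraries, but all 3 were higher in replicate 3, and the order was Mpo, Elane, Prtn3 in both libraries. In FPKM the ratio of Elane to Mpo was 0.70 and 0.653 in AAV-IL-27, against 0.636 and 0.412 in AAV-ctrl.

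Specific granule genes held most of the counts. Ltf, which encodes the iron-binding protein lactoferrin (NCBI Gene 17002, chromosome 9, 111019292 to 111042766), had 1924 and 2999 counts in AAV-IL-27, against 31 and 21 in AAV-ctrl. Camp, which encodes the cathelicidin antimicrobial peptide (NCBI Gene 12796, chromosome 9, 109847377 to 109849456), had 588 and 1056 counts in AAV-IL-27, against 13 and 5 in AAV-ctrl. Ngp, which encodes neutrophilic granule protein, a cystatin-like protein (NCBI Gene 18054, chromosome 9, 110419808 to 110423012), had 5278 and 8340 counts in AAV-IL-27, against 112 and 69 in AAV-ctrl. Of the 10 genes it had the highest count in both AAV-IL-27 libraries. Lcn2, which encodes lipocalin 2, a binder of bacterial siderophores (NCBI Gene 16819, chromosome 2, 32384637 to 32387739), had 942 and 1545 counts in AAV-IL-27, against 20 and 14 in AAV-ctrl. The groups were apart in all 4 genes.

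The 4 fold changes lay within 1 SE of each other. Ltf rose by 6.57 ± 0.51 on the log2 scale (edgeR adjusted p = 0.00875), Camp by 6.51 ± 0.75 (adjusted p = 0.0179), Ngp by 6.25 ± 0.49 (adjusted p = 0.0114) and Lcn2 by 6.20 ± 0.55 (adjusted p = 0.00893). In FPKM, Ngp reached 368 ± 116 in AAV-IL-27, against 5.01 ± 1.67 in AAV-ctrl (SD, n = 2 each). Lcn2 reached 92.6 ± 31.5 FPKM in AAV-IL-27, against 1.29 ± 0.318 FPKM in AAV-ctrl, and Camp reached 88.9 ± 35.5 FPKM in AAV-IL-27, against 0.995 ± 0.629 FPKM in AAV-ctrl. Ltf, the longest transcript of the class, reached 55.3 ± 16.9 FPKM in AAV-IL-27, against 0.595 ± 0.163 FPKM in AAV-ctrl. Lcn2, Camp and Ltf also came in that order in both AAV-IL-27 libraries, at 70.4, 63.8 and 43.4 FPKM in replicate 1 and 115, 114.0 and 67.3 FPKM in replicate 3, with Lcn2 and Camp closest. The FPKM of Lcn2 relative to Ngp was 0.246 and 0.255 in AAV-IL-27, against 0.246 and 0.279 in AAV-ctrl. That of Camp was 0.223 and 0.253 in AAV-IL-27, against 0.233 and 0.144 in AAV-ctrl. That of Ltf was 0.152 and 0.149 in AAV-IL-27, against 0.115 and 0.125 in AAV-ctrl. The low AAV-ctrl counts limit these ratios.

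Of the late genes, S100a8 and S100a9 were abundant per length and Mmp8 was low, at 4.06 ± 2.02 FPKM in AAV-IL-27, against 0.285 ± 0.106 FPKM in AAV-ctrl (SD, n = 2 each). S100a8 and S100a9 encode the 2 chains of calprotectin, a calcium- and zinc-binding protein of the neutrophil cytosol that monocytes also make. S100a8 (NCBI Gene 20201, chromosome 3, 90669071 to 90670034) had 1149 and 1988 counts in AAV-IL-27, against 25 and 33 in AAV-ctrl. S100a9 (NCBI Gene 20202, chromosome 3, 90692630 to 90695721) had 2658 and 4201 counts in AAV-IL-27, against 107 and 56 in AAV-ctrl. Mmp8, which encodes neutrophil collagenase (NCBI Gene 17394, chromosome 9, 7558429 to 7568486), had 104 and 218 counts in AAV-IL-27, against 14 and 8 in AAV-ctrl. None of the 3 had overlapping groups, and S100a8 was the only one of the 10 genes with more counts in AAV-ctrl replicate 3 than in replicate 1.

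S100a8 rose by 5.77 ± 0.59 on the log2 scale (edgeR adjusted p = 0.0163), S100a9 by 5.41 ± 0.52 (adjusted p = 0.0163) and Mmp8 by 3.87 ± 0.52 (adjusted p = 0.00285). Mmp8 had the smallest fold change of the 10, and the next was S100a9. Relative to S100a9, the FPKM of Mmp8 was 0.00789 and 0.0105 in AAV-IL-27, against 0.0262 and 0.0291 in AAV-ctrl, with no overlap. The FPKM of S100a8 relative to S100a9 was 0.592 and 0.648 in AAV-IL-27, between the AAV-ctrl values of 0.318 and 0.803. Of the 17039 genes ordered by FPKM, S100a9 was number 185 and number 120 in AAV-IL-27 replicates 1 and 3, against 5635 and 7698 in AAV-ctrl. S100a9 reached 429 ± 135 FPKM in AAV-IL-27, against 10.5 ± 4.6 FPKM in AAV-ctrl, and S100a8 reached 268 ± 101 FPKM in AAV-IL-27, against 5.08 ± 1.01 FPKM in AAV-ctrl (SD, n = 2 each). In AAV-IL-27 the order was S100a9, Ngp, S100a8 in both libraries, at 333, 286 and 197 FPKM in replicate 1 and 524, 450.4 and 340 FPKM in replicate 3, although the gaps are of the size of the spread between the libraries.

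**Figure D2:**
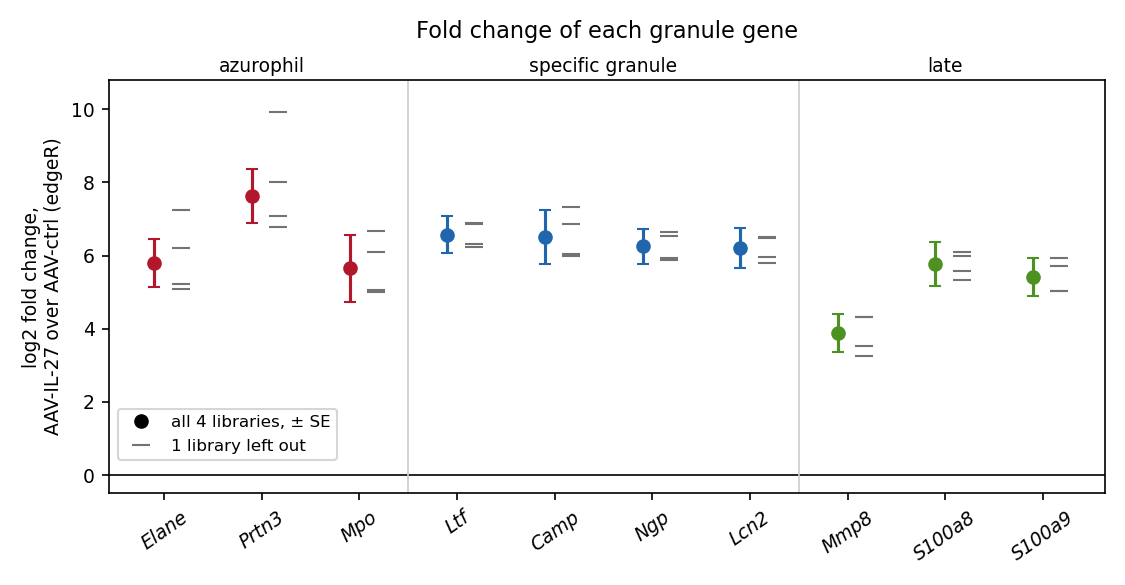
Log2 fold change of AAV-IL-27 over AAV-ctrl for each granule gene (points with SE, edgeR, all 4 libraries) and the values with 1 library left out (grey dashes), colored by class. The specific granule genes lie between 6.20 and 6.57, while Mmp8 is lowest at 3.87.

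Most of the calls rested on both AAV-ctrl libraries. Without AAV-ctrl replicate 1, 3 of the 10 passed (Elane, Prtn3 and Mmp8), and without AAV-ctrl replicate 3, 2 passed (Elane and Prtn3). These 3 genes are among those that passed the filter only through AAV-IL-27 and so had to differ, and none of the 5 genes that passed the filter in AAV-ctrl alone kept its call. In these fits the lone AAV-ctrl library is assumed to vary like the AAV-IL-27 pair. Fewer of all tested genes passed in them too, both higher and lower, than with all 4 libraries. Without AAV-ctrl replicate 1 or replicate 3, the adjusted p was 0.197 and 0.212 for Mpo, 0.0705 and 0.0706 for Ltf, 0.118 and 0.124 for Camp, and 0.0695 and 0.0727 for Ngp. It was 0.0795 and 0.083 for Lcn2, 0.125 and 0.119 for S100a8, and 0.0838 and 0.0895 for S100a9, and Mmp8 lost its call only without AAV-ctrl replicate 3 (0.0526). Over all fits with 1 library left out, the lowest fold change was 3.24 on the log2 scale, for Mmp8 without AAV-IL-27 replicate 3. The values of the azurophil genes and of Camp, a specific granule gene, moved most with the AAV-ctrl library kept. Without AAV-ctrl replicate 1 or replicate 3, the log2 fold change was 7.25 and 5.08 for Elane, and 6.68 and 5.05 for Mpo. That of Camp was 7.34 and 5.99, and that of Prtn3 was 6.78 without replicate 3. Without AAV-ctrl replicate 1, Prtn3 had 0 AAV-ctrl counts, and its fitted value of 9.94 depends on the prior count. All 10 passed without either AAV-IL-27 library and by DESeq2.

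The balance between specific granule and late genes differed between the groups. Specific granule genes made up 65.6% (95% exact binomial interval 64.8% to 66.4%) and 64.2% (63.5% to 64.8%) of the counts of the 10 genes in AAV-IL-27 replicates 1 and 3. In AAV-ctrl replicates 1 and 3 they made up 50.3% (44.9% to 55.6%) and 50.9% (44.0% to 57.8%). Late genes made up 29.4% (28.6% to 30.2%) and 29.5% (28.9% to 30.1%) in AAV-IL-27, against 41.7% (36.5% to 47.1%) and 45.3% (38.5% to 52.3%) in AAV-ctrl. The intervals cover counting error only, and those of the groups did not overlap for either class. No p is given, since the genes were chosen together.

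Expressed as a ratio, late over specific granule counts were 0.448 and 0.46 in AAV-IL-27, against 0.83 and 0.89 in AAV-ctrl. The mean log2 ratio was -1.14 ± 0.026 in AAV-IL-27, against -0.22 ± 0.072 in AAV-ctrl (SD, n = 2 each), a difference of -0.92. This difference is larger than the spread between replicates. It was -1.06 without Ngp and S100a9, the genes with the highest count of their class, -0.82 in FPKM and -1.39 by geometric means, which give each gene equal weight.

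For azurophil genes the comparison depended on how the class was summed. Their share was 4.97% (4.61% to 5.35%) and 6.33% (6.01% to 6.66%) in AAV-IL-27, against 8.0% (5.38% to 11.4%) and 3.74% (1.63% to 7.23%) in AAV-ctrl, where it rested on 28 and 8 counts. The log2 ratio of azurophil to specific granule counts was -3.53 ± 0.27 in AAV-IL-27, against -3.21 ± 0.79 in AAV-ctrl (SD, n = 2 each), and the groups overlapped. The sign of this difference turned without AAV-ctrl replicate 1 (0.24, against -0.32 with all libraries) and without the most abundant gene of each class (0.38). For azurophil over late the log2 ratio was -2.39 ± 0.24 in AAV-IL-27, against -2.99 ± 0.86 in AAV-ctrl, again with overlap, and the difference of 0.60 was -0.01 without AAV-ctrl replicate 3. By geometric means the azurophil over late values were -2.05 and -1.89 in AAV-IL-27, against -2.58 and -3.83 in AAV-ctrl, a difference of 1.23 with no overlap. Without the most abundant gene of each class they were -2.66 and -2.51 in AAV-IL-27, against -2.70 and -5.36 in AAV-ctrl. The difference was 1.44, again with no overlap, but AAV-ctrl replicate 1 lay close to AAV-IL-27 replicate 1. In AAV-ctrl replicate 3 the azurophil value then rested on 1 count of Elane and 0 of Prtn3. The azurophil over specific values overlapped on each of these scales and in FPKM. The few azurophil counts in AAV-ctrl limit both comparisons.

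**Figure D3:**
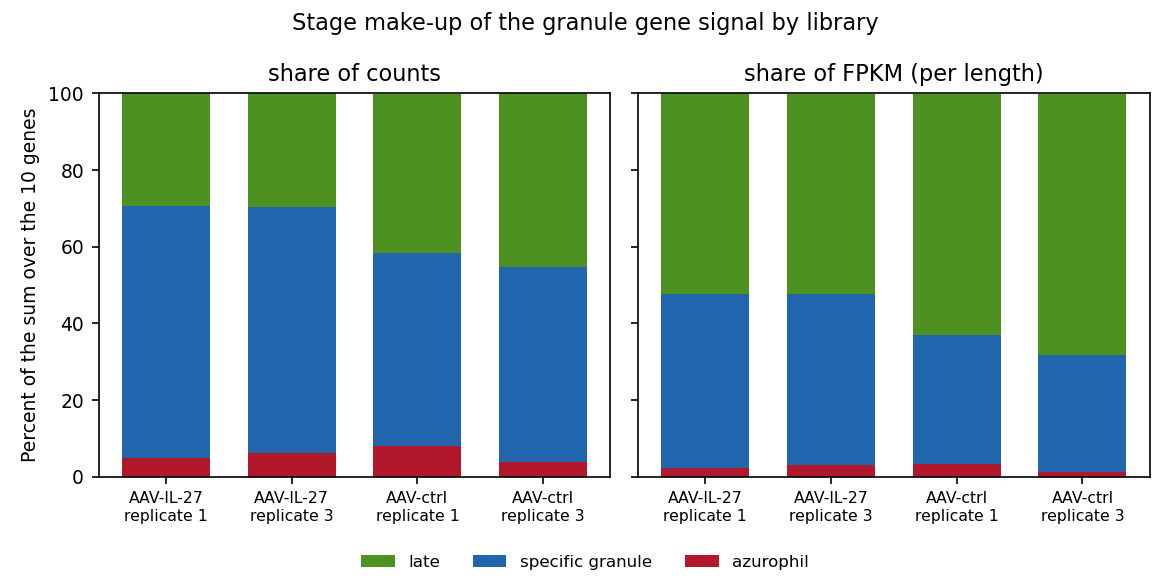
Share of each class in the sum over the 10 genes (percent) for each library, by expected counts on the left and by FPKM, which corrects for transcript length, on the right. Late genes hold 29.4% and 29.5% of the counts in AAV-IL-27 and 41.7% and 45.3% in AAV-ctrl, and 52.2% in each AAV-IL-27 library against 63.0% and 68.2% in AAV-ctrl by FPKM.

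The 2 AAV-IL-27 libraries differed in the amount of granule transcripts. All 10 genes were higher in AAV-IL-27 replicate 3 than in replicate 1, by 1.55-fold (Ltf) to 2.12-fold (Mpo) in CPM, and every 95% counting interval lay above 1. A ratio of at least 1.5 between these libraries was found for 4.07% of all tested genes. The ratio was 2.07 for the azurophil sum, 1.59 for the specific granule sum and 1.63 for the late sum. Mpo, at 2.12 (1.90 to 2.37), lay outside the interval of Ngp, at 1.57 (1.52 to 1.63), while Mmp8, a late gene, reached 2.09 (1.64 to 2.66). These intervals compare 2 libraries and not the conditions. In AAV-ctrl, 9 of the 10 genes were lower in replicate 3 than in replicate 1, and 3 of them (Mpo, Ngp and S100a9) had a counting interval below 1.

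Other cell type markers also moved between these libraries. In CPM, AAV-IL-27 replicate 3 over replicate 1, the 6 B cell markers had a summed ratio of 1.39, the 9 T cell markers 0.875, the 10 monocyte and macrophage markers 0.85, the 6 dendritic cell markers 0.74, the 5 eosinophil markers 4.36 and the 6 markers of dividing cells 1.04. The monocyte and macrophage value was carried by Ly6c2, with 12808 and 10583 counts in AAV-IL-27 replicates 1 and 3, while Csf1r had 404 and 600, Adgre1 85 and 139, and F13a1 138 and 263. Their part in the granule gene values was not tested.

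**Figure D4:**
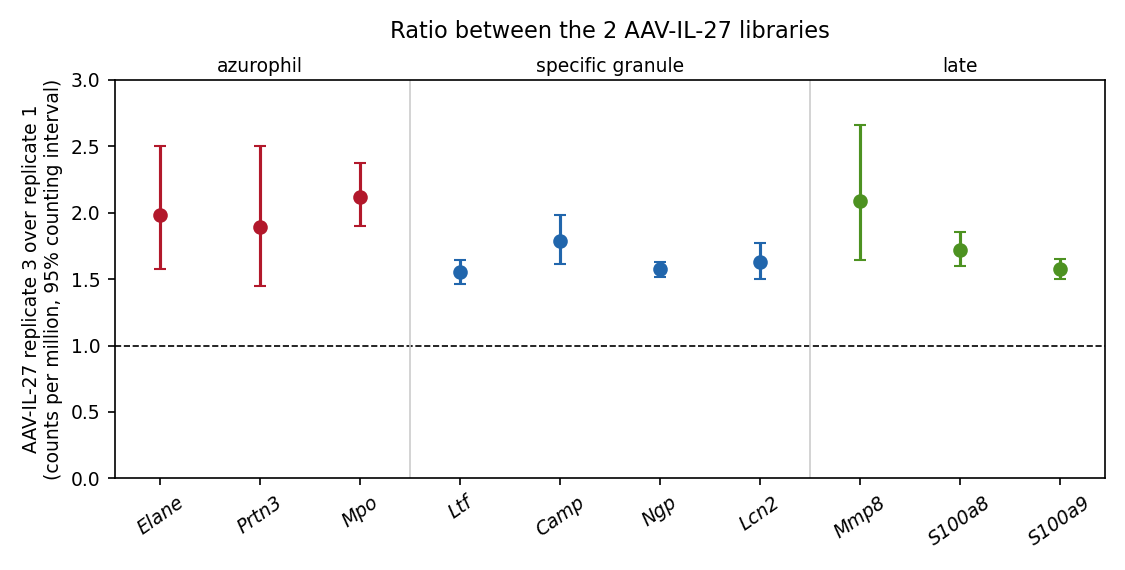
Ratio of AAV-IL-27 replicate 3 over replicate 1 in CPM for each granule gene, with 95% counting intervals, colored by class, and a dashed line at 1. All 10 intervals lie above the line, with Mpo at 2.12 and Ltf at 1.55.

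Other granule genes were examined by lists of neutrophil genes, which were chosen with earlier results of these data known. Of the 8 other azurophil genes 7 were listed and tested, and 6 were higher and none lower (median log2 fold change 1.57). Over all tested genes, 21.3% were higher and 17.7% lower, and the counts of each list stand beside these shares. Of the azurophil list, Ctsg, Ms4a3 and Prss57 passed the filter on low counts only through AAV-IL-27 and so had to differ. Ctsg, which encodes cathepsin G, a serine protease stored with elastase, had 89 and 128 counts in AAV-IL-27, against 3 and 1 in AAV-ctrl (5.69 ± 0.44, SE, edgeR adjusted p = 1.4e-05). Ms4a3, a membrane protein of granulocyte and monocyte progenitors, had 53 and 74 counts in AAV-IL-27, against 3 and 0 in AAV-ctrl, a ratio of 41.4 (13.8 to 203 by counting error). Cd63, a granule membrane protein that many cells carry, rose by 1.57 ± 0.16 (adjusted p = 7.5e-05). The last is a smaller change from a higher level in AAV-ctrl.

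Of 11 other specific granule and early secretory genes, all tested, 9 were higher and none lower (median 3.15). Itgb2l, Olfm4, Lrg1 and Ltb4r1 passed the filter only through AAV-IL-27 and so had to differ. Itgb2l, an integrin beta chain of mouse neutrophils, had 87 and 140 counts in AAV-IL-27, against 1 and 2 in AAV-ctrl, a ratio of 73.9 (25.0 to 361). Hp, which encodes haptoglobin, rose by 3.21 ± 0.31 (edgeR adjusted p = 0.000103), and Pglyrp1, a peptidoglycan recognition protein, by 1.17 ± 0.13 (adjusted p = 0.000445). Olfm4, which encodes olfactomedin 4 and marks a subset of neutrophils, had 15 and 56 counts in AAV-IL-27, against 0 and 0 in AAV-ctrl, and was at least 23.1-fold higher, taking 3 counts over both AAV-ctrl libraries as the floor. With Olfm4 at that bound, the median of the list was again 3.15. Cybb, a subunit of the phagocyte NADPH oxidase that B cells and macrophages also express, stood at 0.20 ± 0.092 and did not pass (adjusted p = 0.134).

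Of 18 gelatinase granule, secretory and late genes, 12 were tested, and 9 were higher and none lower (median 1.41). Ly6g, Wfdc21 and Clec4e passed the filter only through AAV-IL-27 and so had to differ. Ly6g, the surface marker of mouse neutrophils, had 38 and 62 counts in AAV-IL-27, against 0 and 1 in AAV-ctrl, a ratio of 97.7 (17.1 to 3897). Mmp25, a membrane-bound protease, rose by 1.72 ± 0.28 (edgeR adjusted p = 0.00124), and Il1b, an inflammatory cytokine, by 1.12 ± 0.16 (adjusted p = 0.000707). Retnlg, a marker of mature mouse neutrophils, had 94 and 267 counts in AAV-IL-27, against 26 and 26 in AAV-ctrl, and did not pass (adjusted p = 0.0633). Without AAV-ctrl replicate 3, 5 genes of this list were higher, and without AAV-IL-27 replicate 3, 1 was lower.

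Receptors of mature neutrophils showed smaller values, some of them from higher AAV-ctrl counts than the 10 granule genes had. Of 11 receptors 10 were tested, 5 were higher and none lower, with a median of 0.71, against -0.0053 for all tested genes. Over all tested genes, 21.3% were higher and 17.7% lower. Il1r2, Fpr2 and C5ar1 passed the filter only through AAV-IL-27 and so had to differ. Il1r2, a decoy receptor for interleukin-1, rose by 2.59 ± 0.54 (edgeR adjusted p = 0.00459), Fpr2, a formyl peptide receptor, by 2.29 ± 0.53 (adjusted p = 0.0119), and C5ar1, the receptor of complement C5a, by 1.73 ± 0.43 (adjusted p = 0.0112). None of these passed without AAV-ctrl replicate 3 (adjusted p = 0.0714, 0.112 and 0.107), and C5ar1 (0.0783) and Fpr2 (0.0626) did not pass without AAV-ctrl replicate 1. Nor did C5ar1 (0.105) and Fpr2 (0.0547) without AAV-IL-27 replicate 3. Leaving out AAV-IL-27 replicate 3 left 2 receptors higher, as did leaving out AAV-ctrl replicate 1, and with AAV-ctrl replicate 3 left out there were 0. Csf3r, the receptor for granulocyte colony-stimulating factor, had 250 and 480 counts in AAV-IL-27, against 199 and 211 in AAV-ctrl, and did not pass (0.85 ± 0.40, adjusted p = 0.211). Cxcr2, the chemokine receptor by which neutrophils leave the marrow, had 312 and 347 counts in AAV-IL-27, against 288 and 238 in AAV-ctrl. Cxcr2 rose by 0.34 ± 0.11 (edgeR adjusted p = 0.0396). Fpr1, another formyl peptide receptor, had 12 and 17 counts in AAV-IL-27, against 24 and 19 in AAV-ctrl (-0.55 ± 0.37, adjusted p = 0.278). Olfm4, Cybb, Retnlg, Csf3r, Cxcr2 and Fpr1, and among transcription factors Runx1, Spi1 and Gfi1, were named after their values were seen.

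Among 8 transcription factors of granulocytes, 7 were tested, 3 were higher and 1 was lower (Runx1, at -0.19 ± 0.065, edgeR adjusted p = 0.0402). Over all tested genes, 21.3% were higher and 17.7% lower. Cebpe passed the filter only through AAV-IL-27 and so had to differ. No factor was lower without AAV-IL-27 replicate 3, without either AAV-ctrl library or by DESeq2. Cebpe, which encodes C/EBP-epsilon, the factor needed for specific granules, had 25 and 43 counts in AAV-IL-27, against 1 and 0 in AAV-ctrl, a ratio of 66.4 (11.5 to 2662 by counting error). Cebpd rose by 1.15 ± 0.31 (adjusted p = 0.0159) and Cebpb by 0.81 ± 0.16 (adjusted p = 0.00353). Cebpb lost its call when AAV-ctrl replicate 1 was left out (0.0528), and Cebpd did not pass without either AAV-ctrl library (0.0878 and 0.132), without AAV-IL-27 replicate 3 (0.0785) or by DESeq2 (0.133). Both are also made by macrophages and lymphocytes. Spi1, which encodes PU.1, stood at 0.12 ± 0.067 (adjusted p = 0.175), and Gfi1, a repressor needed for granulocytes, had 699 and 605 counts in AAV-IL-27, against 304 and 462 in AAV-ctrl (adjusted p = 0.0658).

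**Figure D5:**
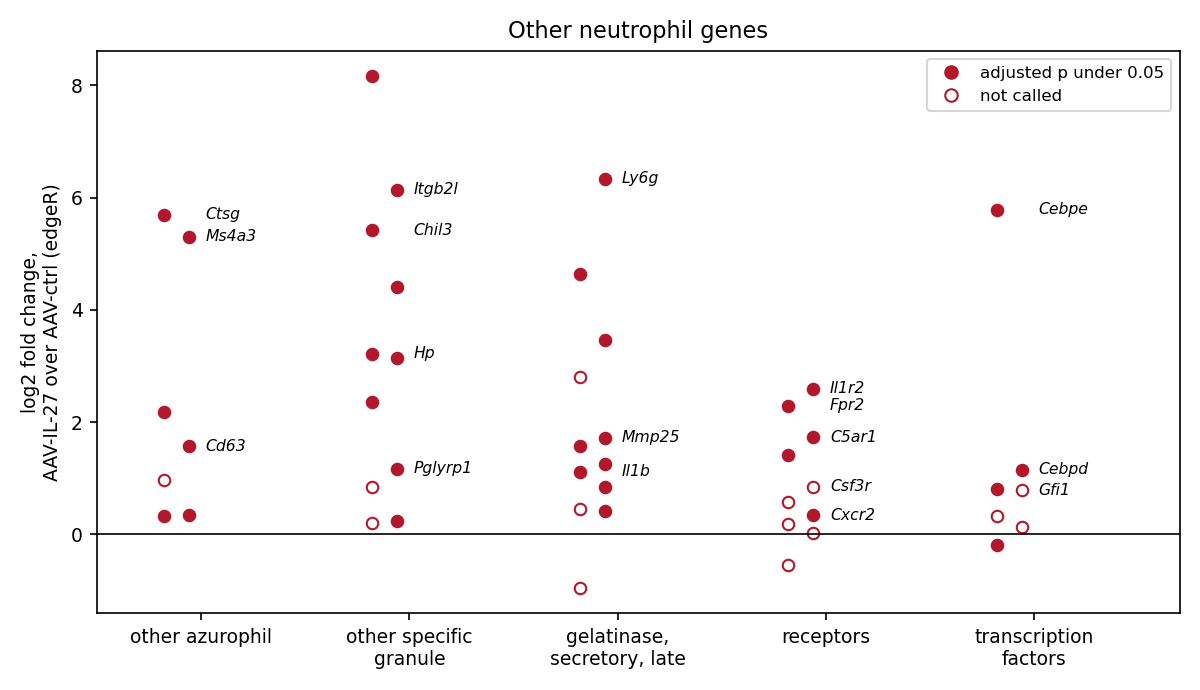
Log2 fold change of AAV-IL-27 over AAV-ctrl (edgeR) for each tested gene of 5 lists of other neutrophil genes, with filled points for adjusted p under 0.05 and open points for the rest. Ctsg, Itgb2l, Ly6g and Cebpe lie above 5, while Csf3r and Cxcr2 lie at 0.85 and 0.34.

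The tested neighbours of the granule genes on their chromosomes, other than members, did not share their large changes. Prtn3 and Elane lie 3138 bases apart, and S100a8 and S100a9 lie 22596 bases apart, while the other members have no other member as nearest listed protein-coding neighbour. Plppr3, next to Prtn3, stood at 0.03 ± 0.14 (edgeR adjusted p = 0.872) and Klhl18, next to Ngp, at -0.04 ± 0.071 (adjusted p = 0.675). The largest rise among tested neighbours that are not members was that of Ccrl2, next to Ltf, at 0.92 ± 0.26 (adjusted p = 0.0199). Cfd, next to Elane, encodes complement factor D and was too low to test, with 0.14 and 0.21 FPKM in AAV-IL-27, against 0.07 and 1.26 FPKM in AAV-ctrl. Mmp10 and Mmp7, next to Mmp8, S100a7a, next to S100a8, and Pglyrp4, next to S100a9, were not tested either. The late genes thus had no tested neighbour outside the members.

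The 5 genes outside the lists whose profile over the 4 libraries lay nearest to the mean profile of the 10 members, out of 10194 candidates, were Fcnb, Dsp, Gzmk, Ear1 and Iigp1. Likeness was the Euclidean distance between log2 CPM, each centred on the gene's mean. Fcnb, which encodes ficolin B, a lectin of myeloid cells, was nearest at 0.305, with 107 and 154 counts in AAV-IL-27, against 2 and 0 in AAV-ctrl. Dsp, which encodes desmoplakin of desmosomes, lay at 0.584, Gzmk, which encodes granzyme K, at 1.04, Ear1, an eosinophil-associated ribonuclease, at 1.05, and Iigp1, an interferon-inducible GTPase, at 1.19. Within the members the distance was between 0.109 (Prtn3) and 1.99 (Mmp8). With 4 libraries, this distance mainly orders genes by the size of their fold change.

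Markers of other cells were read beside these results. The calls of each list stand beside 21.3% higher and 17.7% lower over all tested genes. All 6 markers of dividing cells were higher in AAV-IL-27 (1069 and 1110 CPM in AAV-IL-27, against 286 and 273 in AAV-ctrl). Of 10 monocyte and macrophage markers, which belong to cells that can also express S100a8 and S100a9, 2 were higher and 5 lower. Their sum was 999 and 849 CPM in AAV-IL-27, against 645 and 567 in AAV-ctrl, and Ly6c2, which T cells also express, held most of it. The sum of 6 B cell markers was 1622 and 2253 in AAV-IL-27, against 3321 and 2957 in AAV-ctrl. Of these 6, 1 was lower (Cd79b) and none was higher. Of 6 progenitor markers 5 were tested and none passed by edgeR (lowest adjusted p = 0.0913, for Kit), and their sum was 243 and 195 CPM in AAV-IL-27, against 188 and 212 in AAV-ctrl. Of 5 NK cell markers 4 were lower and 1 (Gzma) was higher, with a median log2 fold change of -2.56, and Klra8 stood lowest at -3.59 ± 0.17 (edgeR adjusted p = 7e-07). Their sum was 130 and 108 CPM in AAV-IL-27, against 144 and 134 in AAV-ctrl, and Gzma, which T cells also express, held most of it. Of 6 dendritic cell markers 1 (Zbtb46) was higher, with sums of 578 and 428 CPM in AAV-IL-27, against 361 and 404 in AAV-ctrl. None of the monocyte, NK cell, dendritic cell, B cell and progenitor markers was at 0 in any library. The part of these cells in the granule gene values was not tested.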

How the data were processed

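The deposited table holds the authors' expected counts for each gene, of which 64.9% to 65.1% per library are whole numbers, and a second set of values that was taken as FPKM. The unit of that deposited FPKM set is inferred from the values, since across 9500 genes the value per count changed with the library totals (0.9955 and 0.9954 for AAV-IL-27 replicate 3 against replicate 1). Per the submitters' processing notes, the tools were RSEM 1.2.12, Bowtie2 2.2.5, HISAT2 2.0.4 and DESeq2 1.4.5, with build GRCm38.p6. The role of each tool and the use of strand are not given in the sources used here. All 40 values of the 10 granule genes are whole. The labels name poly(A) RNA and also a ribosomal RNA removal protocol.

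Expected counts were rounded, filtered with filterByExpr (minimum count 10) and scaled with TMM. The quasi-likelihood test of edgeR 4.0.16 in R 4.3.3 (two-sided, robust, no block) compared the groups, with Benjamini-Hochberg adjustment over all 12887 genes and a threshold of 0.05. Standard errors are the log2 fold change divided by the square root of F. The fit was tested on simulated data. Alternatives used DESeq2 1.42.0, limma 3.58.1 on log2(FPKM + 1) for genes with a mean FPKM of at least 1, other scalings, and fits without a filter or without each library. The sources used here do not say whether replicate numbers pair the libraries, so the main fit had no block. The named genes were the 10 members, the 3 genes of smallest p in each of 5 other neutrophil lists and the 5 nearest profiles (mean log2 CPM of at least 2, predicted genes and receptor segments left out). The members, lists and motifs were chosen with earlier results of these data known. Columns of group means were not used. Intervals of counts cover counting error only.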

Additional observations from a re-analysis of the deposited data

How the results depend on the processing

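The 10 granule genes kept their direction under every alternative tried. All 10 passed with upper-quartile factors, library size alone, DESeq2, limma on log2(FPKM + 1), a prior count of 2 and the fit without robust estimation. Scaled to the T cell list and without a filter, 9 passed, all but Mpo. With 1 library left out, 2 to 10 of the 10 passed, while 1646 to 2632 genes were higher and 989 to 2254 lower among all genes. Scaled to the T cell list 1367 genes were higher, and DESeq2 called 1239 lower. The cause of these shifts was not tested.

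The replicate numbers are shared between groups, but same-numbered libraries did not deviate together (r = -0.00071 over 12887 genes). With the replicate block 9 of the 10 passed, all but S100a9 (log2 fold change 5.38, adjusted p = 0.0646), and 2739 genes were higher and 2232 lower.

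Among the other neutrophil lists, the number of higher genes with 1 library left out was 4 to 7 for azurophil, 6 to 11 for specific granule, 5 to 10 for late, 0 to 7 for receptors and 2 to 3 for transcription factors. By limma 1 receptor was higher. The number of lower genes was 0 to 1 in the late list and 0 to 1 among transcription factors, 1 in the late list when scaled to the T cell list, and 0 transcription factors by DESeq2 and with the replicate block.

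The log2 ratio of late to specific granule genes, AAV-IL-27 minus AAV-ctrl, was -0.82 by FPKM, -1.39 by geometric means and -1.06 without the most abundant genes, and -0.97 to -0.87 with 1 library left out. For azurophil over specific it was 0.38 without the most abundant genes and -0.88 to 0.24 with 1 library left out. For azurophil over late it was 1.23 by geometric means, 1.44 without the most abundant genes, with no overlap between groups in either, and -0.011 to 1.21 with 1 library left out. Low AAV-ctrl counts limit the azurophil genes.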

Other observations

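Other granulocyte genes differed in how evenly they were spread over the 2 AAV-IL-27 libraries. The summed levels of 6 basophil and mast cell markers were 116 and 117 CPM in AAV-IL-27 replicates 1 and 3, against 17.7 and 16.3 in AAV-ctrl. Their ratio of replicate 3 to replicate 1 in AAV-IL-27 was 1.00, against 1.63 for the 10 neutrophil granule genes. Eosinophil markers were the most uneven of the lists examined, with a ratio of 4.36. Their 5 genes summed to 13.9 and 60.6 CPM in AAV-IL-27, against 14.3 and 8.64 in AAV-ctrl. Ccr3 held most of the AAV-ctrl sum, with 191 and 113 counts there, against 31 and 58 in AAV-IL-27. Of the eosinophil markers 4 were tested, with 1 higher (Siglecf) and 1 lower (Ccr3), while all 6 basophil and mast cell markers were higher. Among all tested genes the shares were 21.3% higher and 17.7% lower. Siglecf, Epx, Fcer1a, Prss34 and Ear1 passed the filter on low counts only through AAV-IL-27 and so had to differ. Prg2, the major basic protein of eosinophil granules, had 139 and 617 counts in AAV-IL-27, against 17 and 15 in AAV-ctrl. Epx, eosinophil peroxidase, had 28 and 240 counts in AAV-IL-27, against 4 and 1 in AAV-ctrl. Neither passed by edgeR (adjusted p = 0.139 and 0.186), and both were picked with their values known. Ear1, with 73 and 346 counts in AAV-IL-27, against 4 and 1 in AAV-ctrl, did not pass either (adjusted p = 0.114), but passed in 5 of the alternatives, which were DESeq2 (adjusted p = 4.7e-05), the fit without robust estimation (0.00324), the replicate block (0.00154), and the fits without AAV-IL-27 replicate 1 (2.3e-06) or replicate 3 (0.000242). It did not pass under the other 8, with adjusted p up to 0.374 without AAV-ctrl replicate 3.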
